A study of Mus musculus with 6 samples.

Results

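The immunoglobulin constant genes and the joining chain of mouse kidney are described here through 10 genes of a table of 32285 genes. They were chosen by symbol: the heavy-chain constant genes Ighm, Ighd, Igha, Ighg1, Ighg2b, Ighg2c and Ighg3, the light-chain constant genes Igkc and Iglc2, and Jchain. All 10 were in the table and all 10 passed the filter on low counts, as did 15955 genes in total. Whole kidneys of 6 female mice aged 100 weeks were sequenced, and all 6 animals carried a change in TrnE, which encodes the mitochondrial tRNA for glutamate. The load of an animal is the share of its mitochondrial DNA copies that are mutated. The control group was not free of it: controls 1, 2 and 3 had loads of 10%, 5% and 15%, and high-load kidneys 1, 2 and 3 had loads of 75%, 75% and 80%. The sources used here give no strain, base change or housing.

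Antibodies are pairs of heavy and light chains, made by B cells and in bulk by their secreting descendants, the plasma cells. A B cell starts with IgM and IgD, and class switching replaces the constant part of the heavy chain with that of IgG, IgA or IgE while the variable part stays. The J chain joins secreted IgM and IgA into polymers, which the receptor encoded by Pigr carries across epithelia. In kidney these transcripts are commonly used as marks of resident or infiltrating B cells and plasma cells.

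Total counts per kidney lay between 17449270 and 18865997. The 8 kidney markers (Lrp2, Slc34a1, Umod, Slc12a1, Slc12a3, Aqp2, Nphs1 and Kap) were detected in all 6 kidneys, but their summed level was 6923 CPM in high-load 1 against 13672 to 24035 CPM in the other 5. Not all markers shared this. Lrp2, Slc34a1, Slc12a3, Nphs1 and Kap were lowest in high-load 1, while Umod, Slc12a1 and Aqp2 lay within the range of the other 5. High-load 1 stood apart in other lists too. Its 17 B cell markers summed to 467 CPM against 83.6 to 125 CPM elsewhere, and 14 of the 17 were highest there. Its 6 markers of attached fat and urothelium summed to 247 CPM against 0.167 to 29.8 CPM elsewhere, with the adipsin gene Cfd at 93.7 CPM and the basal keratin Krt5 at 44.2 CPM. The fat genes were also raised in high-load 2, with Cfd at 23.0, Adipoq at 3.58 and Plin1 at 2.82 CPM. In controls they reached at most 0.490, 0.545 and 0.272 CPM. The urothelial genes Upk1b, Upk3a and Krt5 were at 0.163, 0.217 and 0 CPM in high-load 2. Results without high-load 1 therefore still include a kidney with fat transcripts. In control 2 the 7 red blood cell genes summed to 2059.6 CPM against 106 to 352 CPM elsewhere. Some results below are also given without high-load 1, but not every result that it moves, single genes of the lists among them. The part of these lists in the results was not tested.

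The sequences that separate the members of the heavy-chain family are shown first, because the isotype results rest on telling these genes apart. The 4 IgG genes are close relatives: coding sequences of Ighg2b and Ighg2c were 85.6% identical, and the other IgG pairs were 74.1% to 76.2% identical. Their hinge exons, which code for the flexible stretch between the antigen-binding arms and the stem, differ in length and in cysteine codons. In these mm10 sequences, all on the minus strand of chromosome 12, capitals mark the in-frame codons for cysteine, the residue that links the 2 heavy chains.
Ighg1 hinge exon, chr12:113329844-113329882: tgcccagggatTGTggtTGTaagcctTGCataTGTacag
Ighg2b hinge exon, chr12:113307261-113307326: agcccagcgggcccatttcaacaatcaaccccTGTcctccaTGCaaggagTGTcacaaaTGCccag
Ighg2c hinge exon, chr12:113288263-113288325: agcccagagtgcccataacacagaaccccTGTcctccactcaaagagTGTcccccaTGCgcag
Ighg3 hinge exon, chr12:113360529-113360576: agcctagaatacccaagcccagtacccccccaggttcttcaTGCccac
The hinge exons are 39, 66, 63 and 48 bases long and hold 4, 4, 3 and 1 cysteine codons.

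The secretory tail, which the J chain binds, is the second feature shown, and its length sets IgM and IgA apart from IgG. It is the coding stretch that follows the splice site used by the membrane form, and in Ighm and Igha it is 59 bases long. Capitals mark the 40 positions at which the bases are identical.
Ighm secretory tail, chr12:113420870-113420928: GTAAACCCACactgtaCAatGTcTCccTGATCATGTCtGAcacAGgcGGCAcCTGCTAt
Igha secretory tail, chr12:113258771-113258829: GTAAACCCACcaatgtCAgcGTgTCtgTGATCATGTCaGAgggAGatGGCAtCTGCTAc
The tails match at 67.8% of positions. The whole coding sequences of Ighm and Igha are 1364 and 1031 bases long, and 656 of 1377 aligned positions (47.6%) are identical. That value counts positions with a gap as differences, whereas the tails were aligned without gaps. The percentages therefore do not show whether the tails are more alike than the rest of the coding sequences. In the 4 IgG genes the corresponding stretch is 5 bases long. None of the members' stretches of 150 bases, the length of a read, occurs in another annotated gene. At 75 bases, the share found elsewhere was 0.768% for Ighg2b, 0.480% for Ighg2c, 0.574% for Ighg3 and 0.931% for Iglc2, and 0 for the other 6.

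Taken as a sum, antibody transcripts were more abundant in the high-load kidneys than in the controls. The 10 genes summed to 2667, 3419 and 1478 CPM in controls 1 to 3 and to 6232, 7934 and 4690.4 CPM in high-load 1 to 3. CPM is the count of a gene relative to the library total, scaled with TMM factors. The groups did not overlap, and the means of 2522 ± 979 and 6286 ± 1622 CPM (SD, n = 3 each) had a ratio of 2.49. Most of the sum came from Ighm and Igkc, with means of 1552 and 663 CPM in controls and 3184 and 1873 CPM in high-load kidneys. For Igha, Ighd, Ighg1, Ighg2c and Ighg3 taken singly, the groups overlapped. As a share of all reads the sum ran from 0.144% to 0.322% in controls and from 0.466% to 0.790% in high-load kidneys. Leaving out 1 kidney at a time gave ratios of 2.07 to 3.03, with 2.50 when high-load 1 was left out. In whole tissue, more cells of a type and more RNA per cell cannot be told apart.

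**Figure D1:**
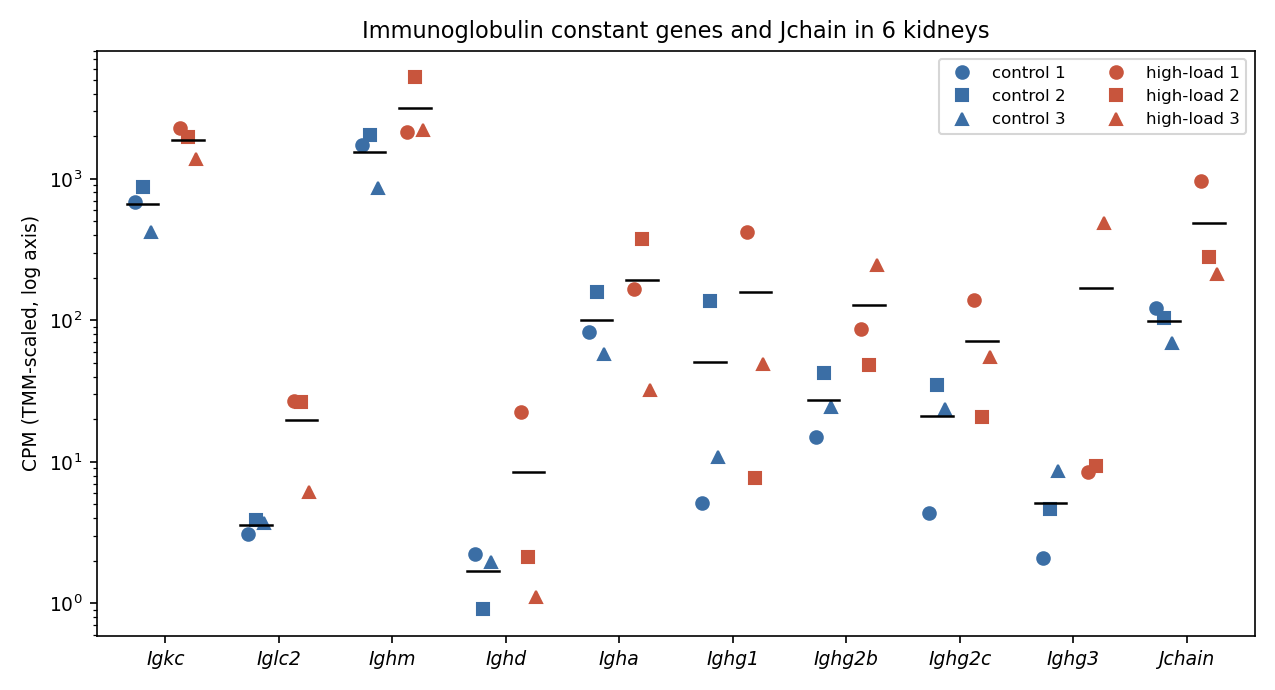
CPM on a log axis for the 10 genes in each of the 6 kidneys, with controls in blue, high-load kidneys in red and black bars for group means of 3. Igkc, Iglc2, Ighm, Ighg2b and Jchain have every high-load kidney above every control, while the points of Igha, Ighd, Ighg1 and Ighg3 spread over more than an order of magnitude within the high-load group.

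No single member passed the test over all genes. In edgeR's quasi-likelihood test 0 of 10 had an adjusted p under 0.05, as against 0.0188% of all 15955 genes that were higher (3 genes) and 0% that were lower. At an unadjusted p under 0.05, 5 of 10 were higher, beside 14% of all genes, and 0 were lower, beside 10.2%. A further count was at an adjusted p under 0.1: 2 of 10 were higher (Igkc and Iglc2), beside 2.59% of all genes. DESeq2 called 4 of the 9 members to which it gave an adjusted p (Igkc, Iglc2, Ighg2b and Jchain), all higher, beside 6.47% of all genes that were higher and 3.77% that were lower, and limma-voom called 0. All 10 had a fold change above 1, as did 50.9% of all genes, and 9 of 10 were at least 2-fold higher, as were 6.25%. In 5 of 10 every high-load kidney lay above every control, which held for 17.1% of all genes, and in 0 of 10 every high-load kidney lay below every control, which held for 15.8%. The median log2 fold change of the members was 2.00, and that of all genes tested 0.01. Without high-load 1 the median was 1.29, with 8 of 10 above a fold change of 1 and 6 of 10 with every high-load kidney above every control, which then held for 20.4% of all genes.

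Kappa light chain was the most abundant antibody transcript per kilobase in each of the 6 kidneys. Igkc (ENSMUSG00000076609, chromosome 6, 70726435 to 70726966, plus strand, a single exon) stood at 687, 881 and 419.7 CPM in controls 1 to 3 and at 2272, 1958 and 1388 CPM in high-load 1 to 3. Every high-load kidney exceeded every control. Its log2 fold change was 1.50 with SE 0.32 and an adjusted p of 0.0981 in edgeR. It was 1.34 without high-load 1, and DESeq2 gave it an adjusted p of 8.67e-05.

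Lambda light chains were a minor part. Iglc2 (chromosome 16, 19198396 to 19200351, minus strand), the constant gene of lambda 2, was at 3.11, 3.89 and 3.70 CPM in controls and at 26.8, 26.4 and 6.12 CPM in high-load kidneys. High-load 1 and 2 were alike and high-load 3 lay nearer to the controls, without overlap. Its log2 fold change was 2.47 with SE 0.55 and an adjusted p of 0.0998. When high-load 3 was left out, Iglc2 became the 1 member called by edgeR, with a log2 fold change of 2.90 and an adjusted p of 0.0289. One of its exons overlaps the joining segment Iglj2 on the same strand, and its coding sequence is 96.2% identical to that of Iglc3.

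The other lambda constant genes had other profiles. Iglc1, the constant gene of lambda 1, had 36.5, 8.63 and 10.1 CPM in controls and 6.95, 61.3 and 12.9 CPM in high-load kidneys, so that the highest value was in high-load 2 and the lowest in high-load 1. Iglc3 ran from 0.277 to 4.30 CPM in controls and from 0.946 to 7.28 CPM in high-load kidneys. Their adjusted p were 0.741 and 0.443 in edgeR. Kappa made up 94.5%, 98.5% and 95.9% of light-chain constant reads in controls and 98.2%, 95.4% and 98.6% in high-load kidneys. The groups overlapped, with an exact permutation p of 0.6 (two-sided; Benjamini-Hochberg adjusted p 0.945 over 13 ratios, shares and V segment measures, where 3 against 3 kidneys cannot go below 0.1).

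IgM was the main heavy chain in every kidney. Ighm (chromosome 12, 113418558 to 113422730, minus strand) stood at 1743, 2054 and 858 CPM in controls and at 2129.7, 5208 and 2215 CPM in high-load kidneys. High-load 2 held the top value, and the other 2 high-load kidneys were just above control 2. The log2 fold change was 1.04 with SE 0.47 and an adjusted p of 0.234, and it was 0.49 when high-load 2 was left out. IgD, which naive B cells carry beside IgM, was rare. Ighd (113406604 to 113416324) stood at 2.22, 0.911 and 1.96 CPM in controls and at 22.4, 2.12 and 1.113 CPM in high-load kidneys. Only high-load 1 was above the controls, and the log2 fold change of 2.33 (SE 1.12, adjusted p 0.254) became -0.07 without that kidney.

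IgA transcripts spread widely among the high-load kidneys. Igha (113254830 to 113260236) stood at 83.3, 158 and 58.2 CPM in controls and at 166, 375 and 32.0 CPM in high-load kidneys. The highest and the lowest of the 6 values were both in high-load kidneys. On the log2 scale the fold change was 0.94 with SE 0.80 and an adjusted p of 0.5001, and it was -0.003 without high-load 2.

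Each IgG gene had its highest value in a high-load kidney, but not all in the same one. Ighg1 (113325240 to 113330523), which is linked to helper T cells of the IL-4 type, stood at 5.10, 137 and 10.7 CPM in controls and at 417, 7.71 and 49.4 CPM in high-load kidneys. Control 2 was above 2 of the 3 high-load kidneys. Its log2 fold change of 1.64 (SE 1.61, adjusted p 0.560) became -0.82 without high-load 1 and 4.32 without control 2.
Ighg2b (113302965 to 113307933) was at 14.9, 42.2 and 24.2 CPM in controls and at 86.3, 48.4 and 247 CPM in high-load kidneys. It was the single IgG gene whose groups did not overlap. Its log2 fold change was 2.23 with SE 0.67 and an adjusted p of 0.133, and it was 1.31 without high-load 3.
Ighg2c (113285325 to 113288932), favoured by interferon gamma, was at 4.38, 35.0 and 23.6 CPM in controls and at 138, 20.7 and 54.7 CPM in high-load kidneys. High-load 2 lay within the controls. The log2 fold change of 1.77 (SE 0.87, adjusted p 0.260) was 0.85 without high-load 1.
Ighg3 (113356224 to 113361232), an isotype known from responses to carbohydrate antigens, was at 2.11, 4.68 and 8.55 CPM in controls and at 8.41, 9.28 and 486 CPM in high-load kidneys. High-load 3 was far above the other 5 kidneys. Its log2 fold change was 5.03 with SE 1.77 and an adjusted p of 0.162, and it was 0.79 without high-load 3 and 5.63 without control 3.

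The J chain was higher in every high-load kidney. Jchain (chromosome 5, 88519809 to 88527891, minus strand) stood at 122, 104 and 69.5 CPM in controls and at 965, 278 and 212 CPM in high-load kidneys. The groups did not overlap, and high-load 1 was far above the other 2. For Jchain the log2 fold change was 2.30 with SE 0.61 and an adjusted p of 0.118. Without high-load 1 it was 1.32, with SE 0.25 and an adjusted p of 0.134.

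Levels of different genes were compared per kilobase of the secreted transcript. In controls the means were 1245 CPM per kb for Igkc, 1039 for Ighm, 90.7 for Igha, 70.6 for Jchain, 47.2 for Ighg1, 24.4 for Ighg2b and 18.89 for Ighg2c. Iglc2 at 7.79, Ighg3 at 4.73 and Ighd at 2.12 CPM per kb came last. In high-load kidneys Igkc at 3519.8 and Ighm at 2133 CPM per kb again led, followed by Jchain at 348, Igha at 174, Ighg3 at 155, Ighg1 at 147 and Ighg2b at 114. Within each group the ranges of Igkc and Ighm overlapped, and the order of Jchain, Igha and the 4 IgG genes is not settled, since the ranges of most neighbours overlapped too: in high-load kidneys Igha ran from 29.0 to 341 and Ighg3 from 7.78 to 449 CPM per kb.

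Isotype shares, the fraction of each class among the reads of the 7 heavy-chain genes, did not separate the groups. IgM made up 94.0%, 84.5% and 87.1% in controls and 71.7%, 91.8% and 71.8% in high-load kidneys. High-load 1 and 3 had the lowest IgM shares, and high-load 2 was among the controls. IgG made up 1.43%, 8.99% and 6.81% in controls and 21.9%, 1.52% and 27.1% in high-load kidneys. IgA made up 4.49%, 6.49% and 5.90% in controls and 5.60%, 6.61% and 1.04% in high-load kidneys, where the low value was in high-load 3. IgD was at 0.753% in high-load 1 and at 0.0361% to 0.199% in the other 5 kidneys. No 95% Clopper-Pearson interval of these shares was wider than 0.983 percentage points, which covers counting error only.

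Switched classes, IgA and IgG together, made up 5.92%, 15.5% and 12.7% of heavy-chain reads in controls and 27.5%, 8.13% and 28.2% in high-load kidneys. The means were 11.4% ± 4.92 and 21.3% ± 11.4 (SD, n = 3 each), and the exact permutation p was 0.3 (adjusted p 0.945). The exact permutation p was 0.3 for IgM, 0.3 for IgG, 0.7 for IgA and 1 for IgD (adjusted p 0.945 for the first 3 and 1 for IgD). Per kilobase of the secreted transcript, switched shares were 7.85%, 20.0% and 16.5% in controls and 34.0%, 10.7% and 34.9% in high-load kidneys, in the same order of kidneys.

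**Figure D2:**
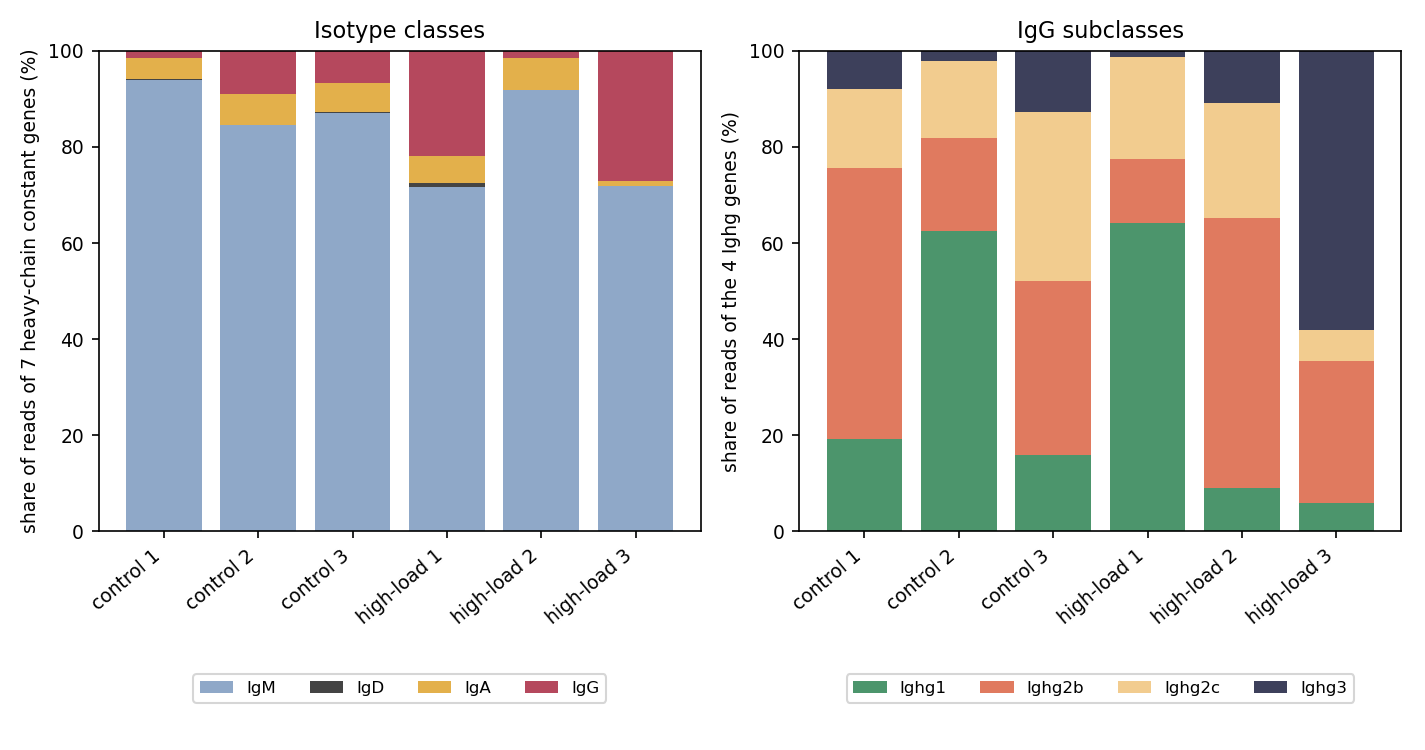
Stacked shares in percent of isotype classes among the reads of 7 heavy-chain constant genes (left) and of the 4 subclasses among IgG reads (right), 1 bar per kidney. IgG reaches 21.9% in high-load 1 and 27.1% in high-load 3 but 1.52% in high-load 2, and Ighg1 leads the IgG of control 2 and high-load 1, Ighg2b that of control 1 and high-load 2, and Ighg3 that of high-load 3.

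Within IgG, the leading subclass was not the same in all kidneys. Ighg1 made up 62.5% of IgG reads in control 2 and 64.2% in high-load 1. Ighg2b led in control 1 with 56.3% and in high-load 2 with 56.2%, the 2 kidneys with the smallest IgG shares. Control 3 was mixed, with 36.1% Ighg2b and 35.15% Ighg2c, and in high-load 3 Ighg3 made up 58.05% and Ighg2b 29.5%. Control 1 and high-load 2, and control 2 and high-load 1, thus had the same leading subclass across the groups. The intervals of these shares were at most 9.08 percentage points wide, in control 1 with its 478 IgG reads.

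J chain and light chain were also set against the heavy chains of the same kidney. There were 6.66, 4.70 and 7.59 Jchain reads per 100 reads of Ighm and Igha in controls and 42.0, 4.98 and 9.42 in high-load kidneys. High-load 1 stood apart, and high-load 2 lay within the controls. The exact permutation p was 0.3 (adjusted p 0.945), and the difference of means of 12.5 reads was 0.885 without high-load 1. Light-chain reads per 100 heavy-chain reads were 39.2, 36.8 and 44.4 in controls and 77.9, 36.2 and 45.6 in high-load kidneys. Again high-load 1 was the exception, with an exact permutation p of 0.5 (adjusted p 0.945) and a difference of 13.1 reads that was 0.766 without it.

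**Figure D3:**
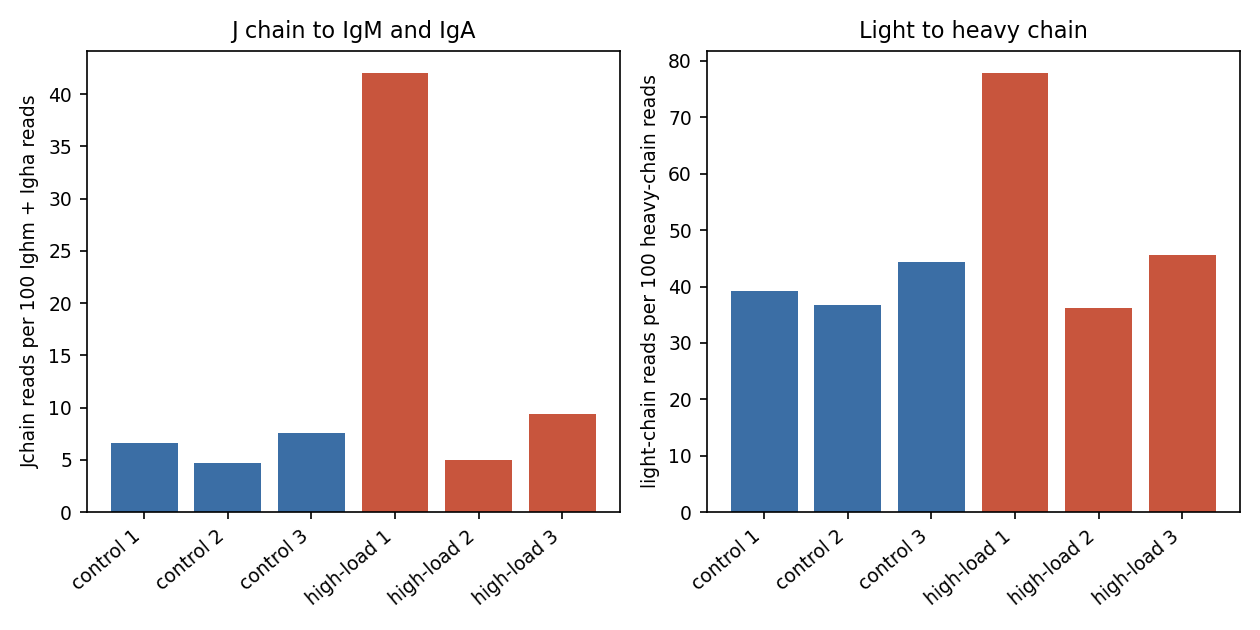
Jchain reads per 100 reads of Ighm and Igha (left) and light-chain constant reads per 100 heavy-chain constant reads (right), 1 bar per kidney with controls in blue and high-load kidneys in red. High-load 1 reaches 42.0 and 77.9 while the other 5 kidneys lie between 4.70 and 9.42 and between 36.2 and 45.6.

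Variable segments, which the rule for the members did not use, also differed between kidneys. A B cell joins a V segment to the constant gene once, and its descendants largely keep that choice through class switching. Of 113 Ighv segments, Ighv1-53 made up 70.5% of Ighv reads in control 1 and 71.5% in control 2 but 9.69% in control 3 (Ighv1-18 led there with 26.1%). In the high-load kidneys the leaders were Ighv1-76 with 38.4% in high-load 1, Ighv6-3 with 71.8% in high-load 2 and Ighv6-6 with 42.1% in high-load 3. Ighv1-53 was at 0.805%, 5.66% and 18.4% in these 3 kidneys. Controls 1 and 2 shared their leader, and the other 4 kidneys each had a leader of their own.

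The leading heavy-chain segments of high-load 2 and high-load 3 were closely related, but no other leading segments were aligned. The leaders of the other kidneys, controls among them, all have names that begin with Ighv1. How alike those segments are was not tested, so the likeness shown here does not set these high-load kidneys apart. Ighv6-3 had 6053 reads in high-load 2 and 18 to 27 in each other kidney, and Ighv6-6 had 1503 reads in high-load 3 and 4 to 8 in each other kidney. The first 300 bases of their V exons (mm10, minus strand) are printed with capitals at each position that differs between them.
Ighv6-3 V exon, chr12:114391722-114392021: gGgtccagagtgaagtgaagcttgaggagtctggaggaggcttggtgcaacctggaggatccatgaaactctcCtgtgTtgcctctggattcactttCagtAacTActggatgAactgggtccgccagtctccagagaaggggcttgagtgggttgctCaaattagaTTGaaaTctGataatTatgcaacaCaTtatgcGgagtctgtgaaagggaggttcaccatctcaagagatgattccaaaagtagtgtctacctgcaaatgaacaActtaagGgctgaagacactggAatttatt
Ighv6-6 V exon, chr12:114434799-114435098: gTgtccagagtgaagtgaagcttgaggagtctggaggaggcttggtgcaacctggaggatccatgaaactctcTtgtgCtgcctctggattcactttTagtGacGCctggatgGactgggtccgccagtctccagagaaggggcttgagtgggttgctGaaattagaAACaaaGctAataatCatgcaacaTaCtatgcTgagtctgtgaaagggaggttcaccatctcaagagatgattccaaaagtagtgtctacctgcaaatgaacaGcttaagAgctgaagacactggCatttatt
The whole V exons are identical at 288 of 311 aligned positions (92.6%), and neither shares a stretch of 75 bases with another annotated gene.

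Kappa V segments showed the same kind of pattern. Of 100 Igkv segments, Igkv4-55 made up 70.8% of Igkv reads in control 1 and 70.7% in control 2, but 0.490% in control 3, 3.36% in high-load 2 and under 0.1% in high-load 1 (0.0110%) and high-load 3 (0.0594%). Igkv3-2 was found at 3.57% to 56.9% in all 6 kidneys and led in control 3 with 31.2% and in high-load 3 with 56.9%. High-load 1 was led by Igkv6-17 with 78.5% and high-load 2 by Igkv8-30 with 47.05%. These shares leave out V pseudogenes. With them counted, Igkv6-17 still led in high-load 1, but with 57.1%. The pair of kidneys that shared a heavy-chain leader, controls 1 and 2, thus shared the kappa leader as well. Counts of these segments are less certain than those of the members: 29.8% of the 75-base stretches of Igkv4-55, 25.7% of those of Igkv6-17 and 17.0% of those of Ighv1-53 also occur in other annotated genes, and at 150 bases the shares are 0%, 1.32% and 0%. Of the 3 lambda segments, Iglv1 led in every kidney with 78.35% to 98.3%, and Iglv2 reached 19.4% in high-load 2 against 0.429% to 3.93% elsewhere. Lambda V counts did not match the constant genes: there were 116 to 199 Iglv reads per 100 reads of Iglc1, Iglc2 and Iglc3. In high-load 1, Iglv1 had 1464 reads, whereas Iglc1 had 147, Iglc2 566 and Iglc3 154. The cause was not tested, and the lambda shares are uncertain.

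**Figure D4:**
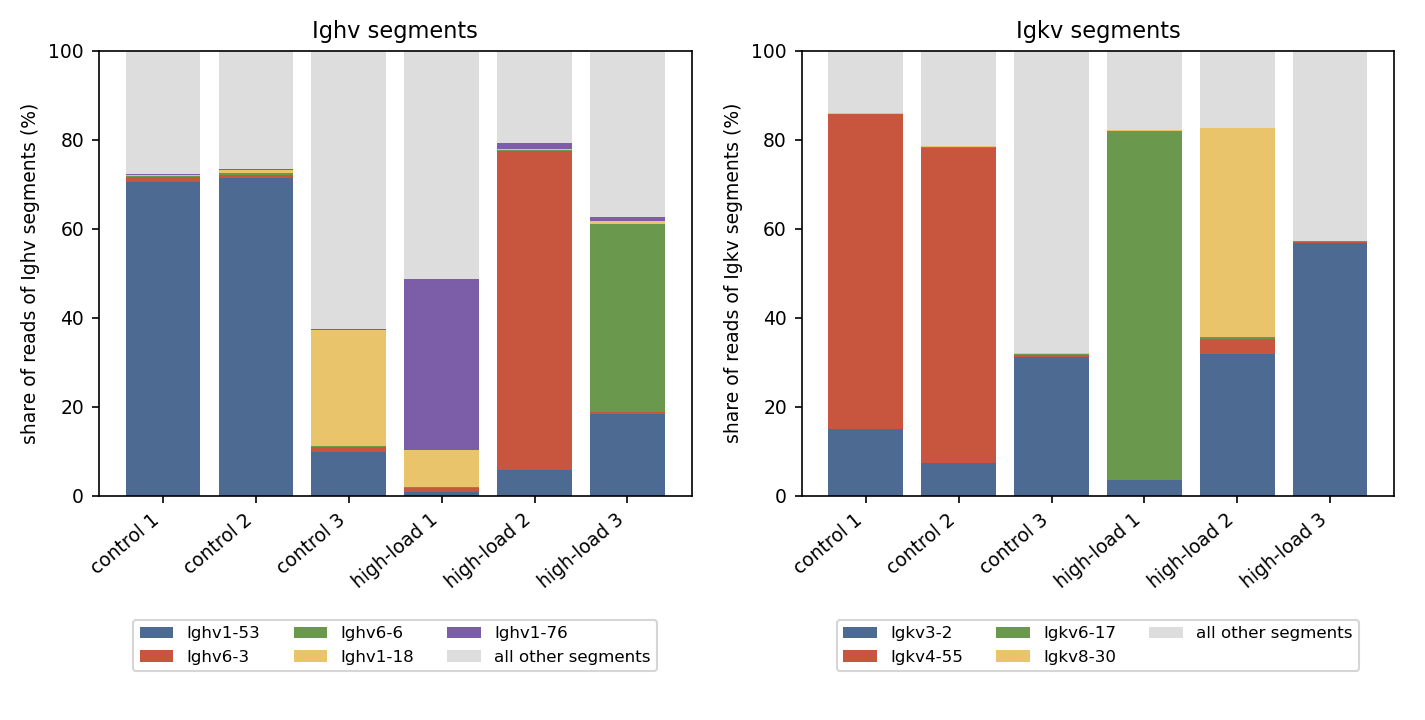
Stacked shares in percent of the named V segments among all Ighv reads (left) and all Igkv reads (right), 1 bar per kidney, with all other segments in grey. Controls 1 and 2 are filled to about the same height by Ighv1-53 (70.5% and 71.5%) and Igkv4-55 (70.8% and 70.7%), and each of the other 4 kidneys has its own pair of leaders.

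The effective number of segments, the inverse of the chance that 2 reads come from the same segment, was 1.97, 1.95 and 9.53 for Ighv in controls and 4.21, 1.92 and 4.44 in high-load kidneys. For Igkv it was 1.895, 1.97 and 5.75 in controls and 1.61, 3.08 and 2.65 in high-load kidneys. With V pseudogenes counted, the Igkv value of high-load 1 was 2.49 instead of 1.61. Control 3 was the most mixed kidney at both loci. The groups overlapped, with exact permutation p of 0.8 and 0.8 (adjusted p 0.945 each). These counts rest on 1506 to 8426 Ighv reads and 5509 to 21276 Igkv reads per kidney. Kidneys with few segments were found in both groups.

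Plasma cell genes other than the members were mostly higher with a smaller fold. Of 13 tested genes of the list, 0 were called over all genes, 11 had a fold change above 1 and 8 had every high-load kidney above every control (17.1% of all genes), with a median log2 fold change of 1.07 beside 0.01 for all genes. In 1, the elongation cofactor Eaf2, every high-load kidney lay below every control (15.8% of all genes), at 11.9, 14.6 and 14.8 CPM in controls and 9.74, 10.6 and 11.4 CPM in high-load kidneys. Without high-load 1 the median was 0.37. Derl3, of the disposal of misfolded proteins, was at 3.88, 4.31 and 3.43 CPM in controls and at 17.2, 10.9 and 7.13 CPM in high-load kidneys (adjusted p 0.0967). Fkbp11, a folding factor of secretory cells, was at 3.05, 3.65 and 3.65 CPM and at 6.38, 7.93 and 8.91 CPM (adjusted p 0.0936). Pou2af1, a coactivator of antibody gene transcription, was at 7.10, 6.44 and 5.99 CPM and at 42.4, 15.6 and 11.7 CPM (adjusted p 0.118). Slamf7, a surface receptor of plasma cells, was at 6.60, 5.53 and 7.08 CPM and at 17.8, 15.0 and 8.52 CPM (adjusted p 0.115). In these 4 genes the groups did not overlap, and only Fkbp11 was lowest in high-load 1 among the high-load kidneys.

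B cell markers were highest in high-load 1. Of 15 tested, 0 were called, 13 had a fold change above 1 and 2 (Cd79a and Cd72) had every high-load kidney above every control (17.1% of all genes). The median log2 fold change of 1.95 was 0.20 without high-load 1. Cd79a, a signalling chain of the B cell receptor, was at 5.66, 5.04 and 4.79 CPM in controls and at 63.1, 11.7 and 7.01 CPM in high-load kidneys. Fcrla, a receptor-like protein of B cells, was at 2.11, 1.28 and 1.31 CPM and at 14.6, 4.23 and 1.45 CPM. Both had their top value in high-load 1, and Fcrla of high-load 3 lay within the controls. Ighd had its highest level in the same kidney, high-load 1, as these B cell markers.

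Among 14 tested genes of B cell survival and homing, 0 were called, 12 had a fold change above 1 and the median was 0.93, or 0.34 without high-load 1. In 5 of the 14 every high-load kidney lay above every control (17.1% of all genes), and in 1 every one lay below (15.8%). That gene was Cxcl12, a chemokine that retains plasma cells, at 260.3 CPM in control 1, 328 in control 2 and 331 in control 3 and at 160.2, 245 and 81.0 CPM in high-load 1 to 3, a log2 fold change of -0.92 (edgeR adjusted p 0.198). Tnfsf13b, the survival factor BAFF, was at 9.82, 6.50 and 7.46 CPM in controls and at 20.2, 16.4 and 11.4 CPM in high-load kidneys (adjusted p 0.114). Cxcl13, the chemokine that draws B cells into follicles, was at 5.49, 4.07 and 2.94 CPM and at 78.1, 10.2 and 10.1 CPM (adjusted p 0.135). In both genes every high-load kidney was above every control. Vcam1, which tethers lymphocytes to vessels, was at 38.8 to 59.4 and 74.9 to 119 CPM, and Ltb, a lymphotoxin of lymphoid tissue, at 3.71 to 5.94 and 7.35 to 26.8 CPM. Of the 6 tested genes of switching and the germinal centre, 0 were called and the median was 0.55. Among them Ung, a uracil glycosylase of DNA repair, was at 2.29 to 3.00 CPM in controls and 4.18 to 7.46 CPM in high-load kidneys.

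Genes of antibody receptors and transport were measured as well, a list that also holds partner chains such as Fcer1g and B2m. Of 11 tested, 0 were called, 9 had a fold change above 1, 6 had every high-load kidney above every control (17.1% of all genes) and 1, Fcgrt, had every one below (15.8% of all genes), and the median was 0.84, or 0.51 without high-load 1. Fcgr1, the high-affinity IgG receptor of macrophages, was at 4.71, 6.02 and 6.37 CPM in controls and at 24.6, 13.0 and 17.3 CPM in high-load kidneys (adjusted p 0.0936). Fcgr4, another activating IgG receptor, was at 8.65, 8.51 and 9.75 CPM and at 32.0, 14.8 and 21.5 CPM (adjusted p 0.0967). Fcer1g, the signalling chain these receptors share, was at 16.2 to 20.2 and 30.2 to 46.8 CPM (adjusted p 0.0936). B2m was at 428 to 525 CPM in controls and 681 to 974 CPM in high-load kidneys (edgeR adjusted p 0.0984). Of 8 macrophage markers 0 were called, and in 7 every high-load kidney lay above every control (17.1% of all genes). The eighth, the growth factor receptor gene Csf1r, was at 71.8 to 150.5 CPM in controls and 110.2 to 118 CPM in high-load kidneys. The 8 summed to 293 to 396 CPM in controls and 527 to 872 CPM in high-load kidneys. Pigr, the carrier of polymeric IgA and IgM, was at 76.1, 554 and 49.96 CPM in controls and at 534, 206 and 438 CPM in high-load kidneys, with overlap between the groups. Fcgrt, which saves IgG from breakdown, was at 255 to 301 and 156 to 227 CPM, with every high-load kidney below every control (adjusted p 0.131).

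**Figure D5:**
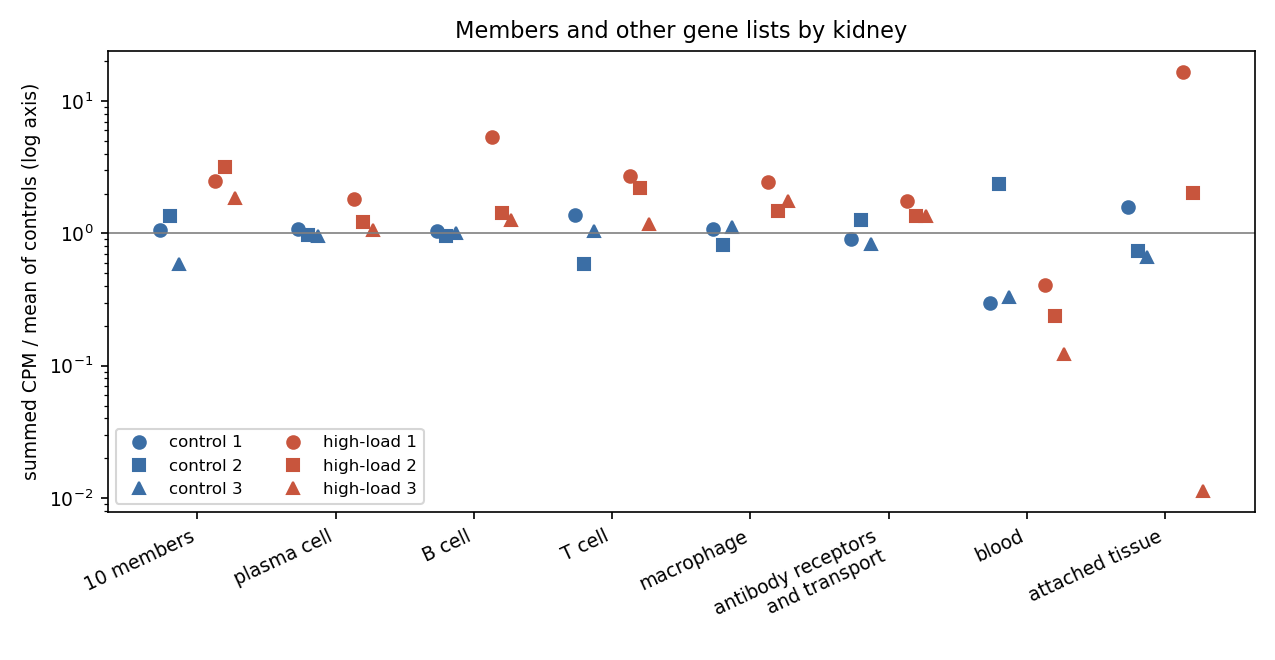
Summed CPM of the 10 antibody genes and of 7 other gene lists in each kidney, divided by the mean of the 3 controls on a log axis. The sum of the 10 genes lies above every control in each high-load kidney. The B cell and attached tissue lists peak in high-load 1 (467 and 247 CPM) and the blood list in control 2 (2059.6 CPM).

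The genes whose profile over the 6 kidneys was nearest to the summed level of the 10 were C6, Gpr65, St8sia2, Fetub, Pcdhb11, Myo15, Socs1 and Gpr55. The root-mean-square distance of their centred log2 profiles was 0.338 for C6, a late complement component, and 0.341 for Gpr65, a proton-sensing receptor of leukocytes. The median over all 14844 genes compared was 0.821. The 8 were picked for the smallest distances, so a value below that median was fixed by the choice. Some were scarce: St8sia2, Pcdhb11, Myo15 and Gpr55 reached at most 1.89, 2.06, 2.17 and 2.55 CPM in any kidney. C6 was at 3.22, 3.10 and 2.40 CPM in controls and at 6.47, 7.33 and 6.35 CPM in high-load kidneys.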

How the data were processed

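The authors deposited 1 table of raw counts per Ensembl gene for 6 kidneys. Per the submitters' processing notes, the tools were fastp 0.23.2, HISAT2 2.2.1, SAMtools 1.11, featureCounts 2.0.1 and edgeR, with build mm10. Per the labels' protocols, reads were 150-base pairs from TRIzol RNA. No source used here names the annotation, the strandedness or how reads with several matches were counted, so counts of near-identical V segments are uncertain. Groups came from the titles and loads from the genotype labels, each library with its own animal code, and no batch is named. The labels do not state that the replicate numbers pair animals, and the main test did not pair them.

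Symbols (32158 of 32285 identifiers), positions, lengths and sequences came from GENCODE M21 (mm10). Differences were tested with edgeR 4.0.16 (R 4.3.3) using filterByExpr (minimum count 10), TMM, a robust two-sided quasi-likelihood test on group, and Benjamini-Hochberg adjustment over 15955 genes at 0.05. TMM factors were 0.944 to 0.974 in controls and 1.139, 0.997 and 0.994 in high-load 1 to 3. Isotype shares, the kappa share, chain ratios and V segment measures had exact permutation tests over 3 against 3 kidneys. Isotype shares, IgG subclass shares and leading V segment shares had 95% Clopper-Pearson intervals. V segment measures used annotated V genes without pseudogenes. All count tests were first run on simulated data with known changes. DESeq2 1.42.0 and limma-voom (limma 3.58.1) were alternatives.

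The members, gene lists and tests were chosen with earlier results of these data known. Named were all members, the other constant genes, up to 4 genes per list with the smallest p, the 3 most used V segments per locus and the 8 genes nearest in profile (mean of at least 1 CPM, distance on log2(CPM + 0.5)). The V segments leading in a kidney, Pigr, Fcgrt, Eaf2, Cxcl12, Csf1r, Cfd, Adipoq, Plin1 and the J segments were named after their values were seen. Lengths of secreted transcripts (Ighm-201, Igha-201 and the like) were also chosen after the data were seen. Some list genes are not reported here and were left out of their lists.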

Additional observations from a re-analysis of the deposited data

How the results depend on the processing

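The numbers of members called were 0 in edgeR under every scaling, filter, robustness, load and block setting, 4 in DESeq2, and 0 to 1 when 1 kidney was left out. Over all genes, 3 were called, against 50 without the filter, 1681 in DESeq2, 0 in limma-voom, 10 with load as a number, 1 with the replicate block and 0 to 807 without 1 kidney. Deviations of same-numbered kidneys from their group means correlated at 0.124, -0.182 and 0.049. Between differently numbered kidneys the correlations ran from -0.277 to 0.313. Such correlations cannot decide whether the animals were paired, and the labels state no pairing. Without 1 kidney, log2 fold changes were 1.25 to 1.76 for Igkc and 1.32 to 2.66 for Jchain, -0.82 to 4.32 for Ighg1, -0.073 to 2.84 for Ighd and -0.003 to 1.44 for Igha, negative without high-load 1 for Ighg1 and Ighd and without high-load 2 for Igha. Differences of means, high load minus control, ranged over kidneys left out from -0.0820 to 0.276 points for the IgD share, -2.31 to 0.481 points for the IgA share, -2.22 to 1.56 and -1.41 to 0.515 for the effective numbers of Ighv and Igkv segments, and -20.2 to 2.45 and -9.95 to 10.1 points for the leading Ighv and Igkv shares. With pseudogenes the leading Igkv share differed by -3.91 points instead of 3.23. The cause of these changes was not tested. Of the other values, 142 for single members and 117 for shares, ratios and counts kept their sign, their side of the threshold or their number called. Their size was not always kept. Without high-load 3 the log2 fold change of Ighg3 fell from 5.03 to 0.79. Without high-load 1 the difference of means fell from 12.5 to 0.885 for Jchain reads per 100 Ighm and Igha reads. For light-chain reads per 100 heavy-chain reads it fell from 13.1 to 0.766. Depth limits Ighd most among the members, with 15 to 40 reads per control kidney.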

Other observations

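Heavy-chain and kappa joining segments, the short pieces between V and constant genes, had most of their reads in high-load 1. The 4 Ighj segments had 15, 22 and 19 reads in controls 1 to 3 and 2751, 24 and 35 reads in high-load 1 to 3. In high-load 1 these were 1467 reads of Ighj4, 725 of Ighj3, 497 of Ighj2 and 62 of Ighj1. The 5 Igkj segments had 32 to 48 reads in controls and 907, 118 and 103 in high-load kidneys, of which Igkj4 had 786 in high-load 1. The lambda joining segments did not share this: they had 25, 9 and 10 reads in controls and 15, 47 and 13 in high-load kidneys, with the highest value in high-load 2. The V pseudogene Igkv2-116 had 3416 reads in high-load 1 and 0 to 6 reads elsewhere. High-load 1 had 18.95 Igkv reads per 100 Igkc reads, against 55.95 to 84.3 elsewhere. Igkv2-116 counted as a V segment would hold 27.3% of Igkv reads of that kidney. The cause of these counts was not tested.

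T cell markers were measured beside the antibody genes. Of 13 tested, 0 were called, 13 had a fold change above 1 and 3 had every high-load kidney above every control (17.1% of all genes), with a median log2 fold change of 1.03, or 0.76 without high-load 1. They summed to 53.1, 22.7 and 40.3 CPM in controls and 105, 85.0 and 45.2 CPM in high-load kidneys, so high-load 3 lay within the controls. IgE was close to the limit of detection: Ighe had 1, 0 and 3 reads in controls and 5, 4 and 0 reads in high-load kidneys, and was not tested.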
